A study of Mus musculus with 12 samples.

Results

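Transcripts of 49 genes that license, fire, copy and supply DNA replication, or that drive entry into S phase, were followed in MC38, an established line of mouse colon carcinoma cells. The genes were taken by name from the textbook replication machinery, with earlier results of these data known, and 48 of the 49 were measured among 18193 genes in all; Chaf1a was not analysed here. Cells grown as monolayers received 100 nM GDC-0623, an inhibitor of the kinase MEK, or the solvent DMSO, and RNA was taken after 24 h and 72 h. The 12 arrays formed 4 groups of 3 biological replicates (the labels' term), namely 24 h GDC-0623, 24 h DMSO, 72 h GDC-0623 and 72 h DMSO. The comparisons ask how tumor cells on their own respond to the inhibitor early and late. No genotype or added agent other than these is given, and the cells are 1 established line. RNA came from whole cultures, so fewer cells in a cycle phase and less RNA per cell cannot be told apart.

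In G1, the origin recognition complex, Cdc6 and Cdt1 load the MCM ring onto DNA, a step called licensing that geminin blocks later in the cycle. At the start of S phase, the kinase Cdc7 with its activator Dbf4, together with Mcm10, Cdc45 and the GINS complex, turns the loaded ring into an active helicase. DNA polymerase alpha with primase starts each strand, polymerases epsilon and delta extend it with the sliding clamp PCNA and its loader RFC, and RPA covers single strands. Many of these genes are switched on by E2F transcription factors. Mitogen signals that run through MEK and ERK free E2F from the retinoblastoma protein by way of cyclin D.

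The promoters of several members hold the letters of an E2F site, and 6 are printed. They belong to members that fell at both times, to 1 that fell at 72 h only, and to 1 not called at either time. The window of the member that fell at 72 h only, Rfc4, holds none of the E2F forms listed below. Near variants of those forms were not searched. RefSeq windows on the mouse assembly GRCm38.p6, from 250 bases before to 50 bases after an annotated start (300 bases), were matched to 40 of the 48 members. Capitals mark an E2F site (TTTGGCGC, TTTCGCGC, TTTCCCGC or TTTGCCGC) or a CCAAT box (CCAAT), read on both strands. Where E2F matches overlap, the capitals run together.
Cdt1 (chr8:122567765-122568064, plus strand): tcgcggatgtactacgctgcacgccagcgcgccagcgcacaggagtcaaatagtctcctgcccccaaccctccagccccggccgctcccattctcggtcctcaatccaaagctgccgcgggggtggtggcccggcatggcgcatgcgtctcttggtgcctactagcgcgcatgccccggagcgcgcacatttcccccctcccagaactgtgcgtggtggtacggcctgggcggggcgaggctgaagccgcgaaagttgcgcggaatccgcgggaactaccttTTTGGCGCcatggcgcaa
Cdc6 (chr11:98907901-98908200, plus strand): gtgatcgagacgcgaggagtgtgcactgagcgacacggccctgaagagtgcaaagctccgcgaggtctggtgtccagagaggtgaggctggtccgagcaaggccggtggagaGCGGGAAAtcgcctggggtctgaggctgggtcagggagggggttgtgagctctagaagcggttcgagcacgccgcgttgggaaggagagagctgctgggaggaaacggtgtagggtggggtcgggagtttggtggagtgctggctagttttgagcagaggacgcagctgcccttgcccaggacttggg
Orc1 (chr4:108579204-108579503, plus strand): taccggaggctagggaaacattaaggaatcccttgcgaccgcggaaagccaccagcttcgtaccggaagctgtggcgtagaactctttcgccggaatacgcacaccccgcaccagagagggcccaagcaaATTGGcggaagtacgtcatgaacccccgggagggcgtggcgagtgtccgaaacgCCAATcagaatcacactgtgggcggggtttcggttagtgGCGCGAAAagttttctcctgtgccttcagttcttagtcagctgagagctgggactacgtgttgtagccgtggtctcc
Pole2 (chr12:69228141-69228440, minus strand): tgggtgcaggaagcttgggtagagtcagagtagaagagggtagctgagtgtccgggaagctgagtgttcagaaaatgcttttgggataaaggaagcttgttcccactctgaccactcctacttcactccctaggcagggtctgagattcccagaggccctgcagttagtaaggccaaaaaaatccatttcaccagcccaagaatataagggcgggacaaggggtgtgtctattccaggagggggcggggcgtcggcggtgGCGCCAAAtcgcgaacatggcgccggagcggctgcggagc
Rfc4 (chr16:23127681-23127980, minus strand): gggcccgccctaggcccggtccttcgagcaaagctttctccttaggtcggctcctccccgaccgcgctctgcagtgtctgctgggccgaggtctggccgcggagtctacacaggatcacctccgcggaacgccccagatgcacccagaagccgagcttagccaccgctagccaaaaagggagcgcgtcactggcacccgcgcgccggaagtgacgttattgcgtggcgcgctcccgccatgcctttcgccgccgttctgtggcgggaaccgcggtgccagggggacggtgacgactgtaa
Mcm6 (chr1:128359656-128359955, minus strand): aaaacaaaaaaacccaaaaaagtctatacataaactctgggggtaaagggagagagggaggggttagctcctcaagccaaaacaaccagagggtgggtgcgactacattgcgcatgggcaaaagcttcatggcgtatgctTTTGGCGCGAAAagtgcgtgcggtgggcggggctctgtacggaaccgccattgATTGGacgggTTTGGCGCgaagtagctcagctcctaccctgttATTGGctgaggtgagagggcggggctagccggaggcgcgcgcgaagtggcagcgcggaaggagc

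Orc1 had an E2F match at position −27 and Cdc6 at −138, counted from the annotated start as 0, while those of Cdt1 and Pole2 lay at 32 and 10. Mcm6 held 3 matches, at −110, −106 and −47, of which the first pair overlap. An E2F match was present for 14 of 40 members (35%), against 2.6% of 27025 genes in the table and 3.29% of its 17492 protein-coding genes. A CCAAT box was found for 24 members (60%), against 41.1% of all genes. The cell-cycle homology region, searched as TTTGAA on both strands, was found for 7 members (17.5%), against 20.2% of all genes. Among the matched members that fell at 72 h, 9 of 20 (45%) held an E2F match, and among those not called there, 5 of 20 (25%) did. No TTTGAA match overlapped another motif in the members, and an E2F match overlapped a CCAAT box in Mcm7. These shares are descriptions of letters in a fixed window and were not tested.

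**Figure D1:**
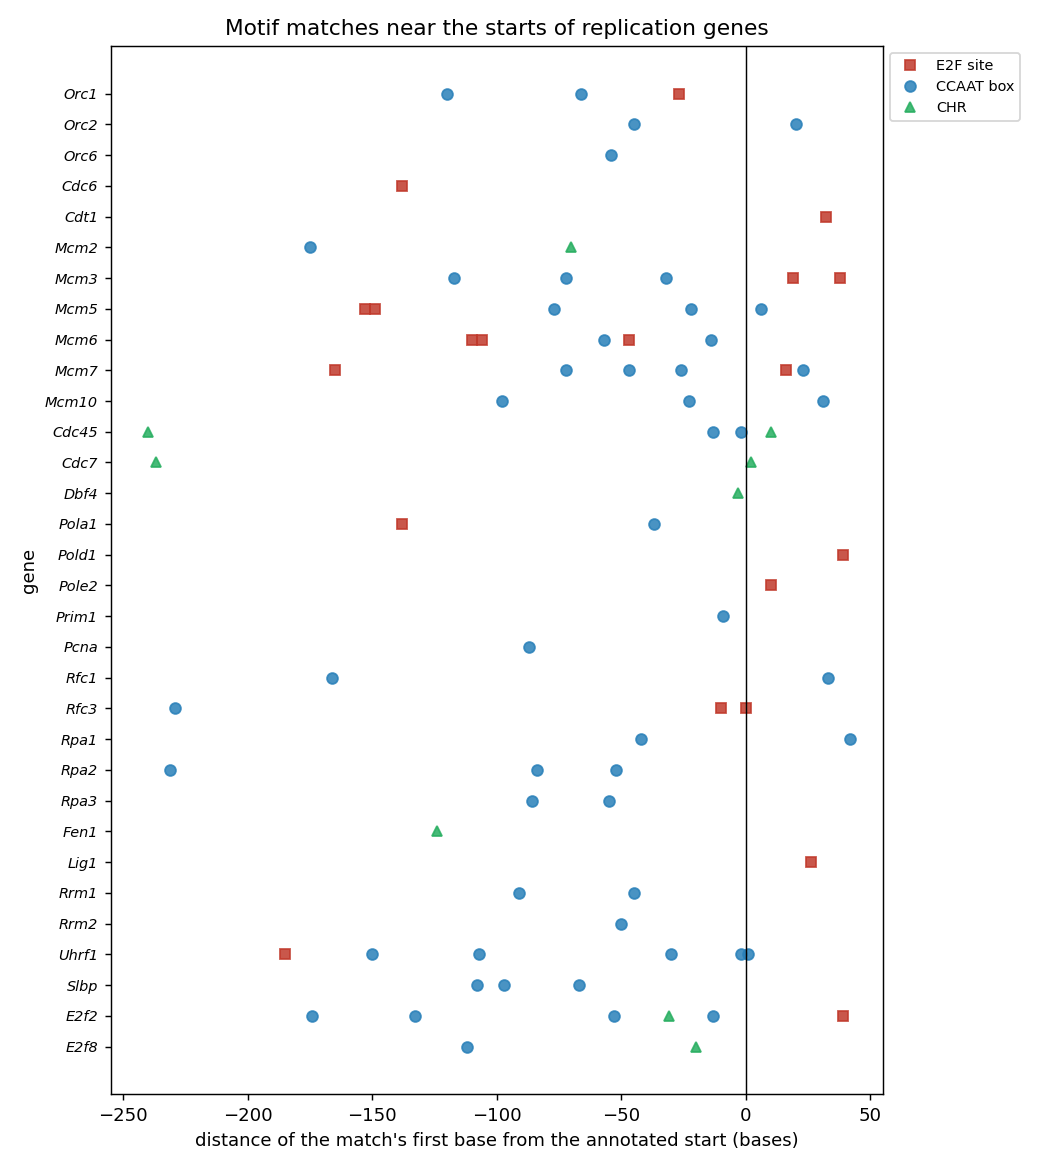
Positions of motif matches in the promoter windows of the 32 members with any match; the x axis is the distance of the first matched base from the annotated start in bases, and each row is a gene, with all its windows. Squares are E2F sites, circles are CCAAT boxes and triangles are the cell-cycle homology region, and Mcm6 shows 3 E2F matches at −110, −106 and −47.

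The deposited values are log2 signals from robust multichip averaging (RMA), which gives each array nearly the same distribution and so removes a shift shared by most genes. Array medians lay between 4.63 and 4.69. Egr1, an immediate early factor induced by ERK, was lower with the drug at both times: it averaged 4.08 ± 0.25 in 24 h GDC-0623 and 8.98 ± 0.12 in 24 h DMSO (SD, n = 3 each), and 5.72 ± 0.89 in 72 h GDC-0623 and 11.29 ± 0.65 in 72 h DMSO. All 11 epithelial markers averaged under 6 in each group, with a mean level over the list of 3.80 to 4.0 on every array, although the line is a carcinoma. At 72 h, 1 of these 11 was called lower, against 12.4% of all genes. The 10 leukocyte and 6 endothelial markers measured were also under 6 on average, and none was called at either time. Of 9 mesenchymal markers, 5 rose at 24 h and 6 at 72 h with GDC-0623, against 13.3% and 13.8% of all genes called higher. Their mean level was 9.11 to 9.27 in 24 h GDC-0623 and 8.20 to 8.46 in 24 h DMSO. It was 9.62 to 9.96 in 72 h GDC-0623 and 8.62 to 8.72 in 72 h DMSO. Their part in the results below was not tested.

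One array of 72 h GDC-0623, replicate 1, stood apart from the other two of its group. It lay at 77.4 on the first principal component (58.6% of the variance), beyond 44.8 and 49.8 for replicates 2 and 3. All 48 members were lowest on it among the 3 arrays of its group, against 36.7% of all genes. Its members lay a median of 0.42 below the mean of the other two arrays on the log2 scale. In 24 h GDC-0623, replicate 1 likewise held the lowest value for 38 of 48 members, against 29.6% of all genes, with a median shift of −0.17. Members varied more between arrays under the drug, with a median SD of 0.112 in 24 h GDC-0623 and 0.0426 in 24 h DMSO, and of 0.241 in 72 h GDC-0623 and 0.0535 in 72 h DMSO. Over all genes these medians were 0.0907, 0.0751, 0.106 and 0.0814 in the same order of groups. Differences between drug and solvent at 72 h are therefore also given "without replicate 1", which means without that array throughout.

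With GDC-0623, 14 of 48 members fell at 24 h and 24 of 48 at 72 h, and none rose at either time. The mean level over the members was 9.53, 9.66 and 9.71 on the arrays of 24 h GDC-0623 and 9.85, 9.88 and 9.86 on those of 24 h DMSO. It was 9.03, 9.42 and 9.41 in 72 h GDC-0623 and 9.63, 9.67 and 9.70 in 72 h DMSO. At neither time did the drug and solvent arrays overlap in this mean. A gene was called where its adjusted p in the limma fit was under 0.05, with adjustment over all 45037 probe sets. Errors given with a log2 difference (GDC-0623 minus DMSO) are standard errors of that fit.

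At 24 h, 14 of 48 members fell (29.2%), against 8.23% of all genes called lower, and 0 rose, against 13.3% of all genes called higher. At an unadjusted p under 0.05 the number was 28, against 35% of all genes. All 3 GDC-0623 arrays lay below all 3 DMSO arrays for 31 members, against 20% of all genes, and above them for 1 member, against 21.2%. The median difference was −0.21, against −0.03 over all genes, with a range of −0.76 to 0.13. The number called was 28 when dim probe sets were left out, 29 with a trended prior and 9 in 1 fit over all 12 arrays. The shares of all genes called lower in these fits were 17.8%, 11% and 7.88%. The number was 3 (Orc2, Cdt1 and Tk1) after each array was shifted by its hybridization controls (1.89% of all genes called lower), a scaling that put the median at −0.04 for members and 0.14 for all genes.

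At 72 h, 24 of 48 members fell (50%), against 12.4% of all genes called lower, and 0 rose, against 13.8% called higher. At an unadjusted p under 0.05 the number was 35, against 38.5% of all genes. The arrays of 72 h GDC-0623 lay wholly below those of 72 h DMSO for 37 members, against 23.7% of all genes, and wholly above for 0, against 21.3%. The median difference was −0.40, against −0.03 over all genes, and reached from −1.23 to 0.13. Without replicate 1 of 72 h GDC-0623, 21 members fell, against 10% of all genes, and the median was −0.24; Gins4, Rfc3 and Rrm2 were no longer called. Leaving out replicate 1, 2 or 3 of 72 h DMSO gave 13, 13 or 12 called, against 8.88%, 8.03% or 8.43% of all genes called lower. Of the 14 members that fell at 24 h, 12 also fell at 72 h (85.7% of the 24 h list and 50% of the 72 h list), and the other two were Orc6 and Tk1. Arrays are given one by one for up to 3 called members per role, those with the largest differences. Among these, 8 of 11 at 24 h and 11 of 19 at 72 h were called whichever array was left out. Orc2, Cdt1, Gins1, Cdc45, Mcm10 and Dut belong to both sets, each on the probe set used.

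**Figure D2:**
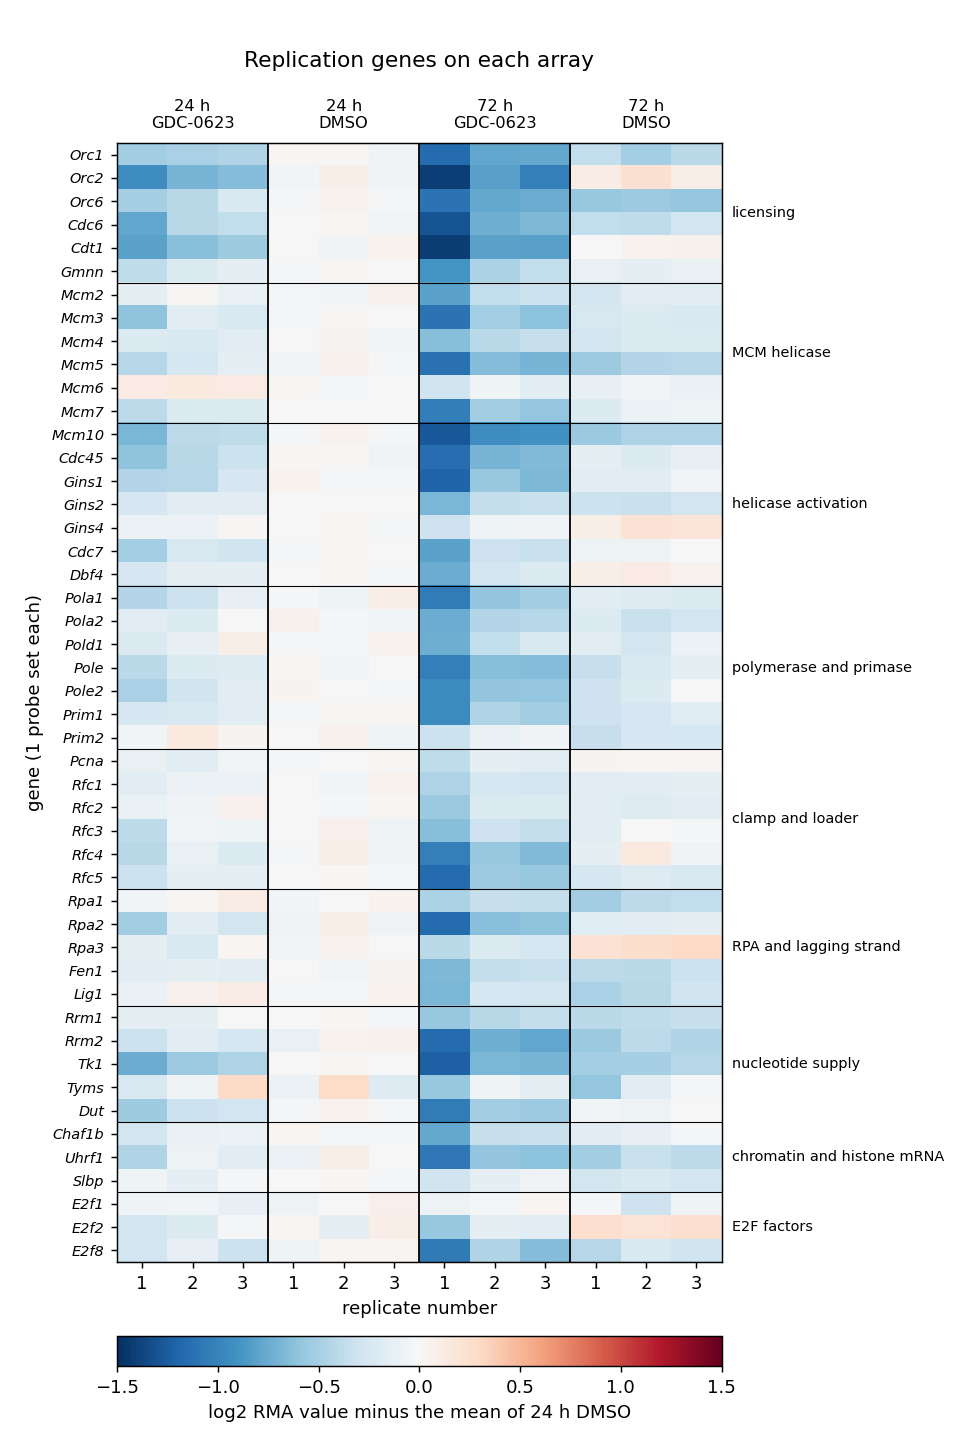
Each row is 1 of the 48 members, grouped by role, and each column is 1 array, with the 3 replicates of each group side by side; color gives the log2 RMA value minus the gene's mean in 24 h DMSO, blue lower and red higher. The column of 72 h GDC-0623 replicate 1 holds the lowest values of its group, with a mean member level of 9.03 against 9.42 and 9.41 on the other two arrays of that group.

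**Figure D3:**
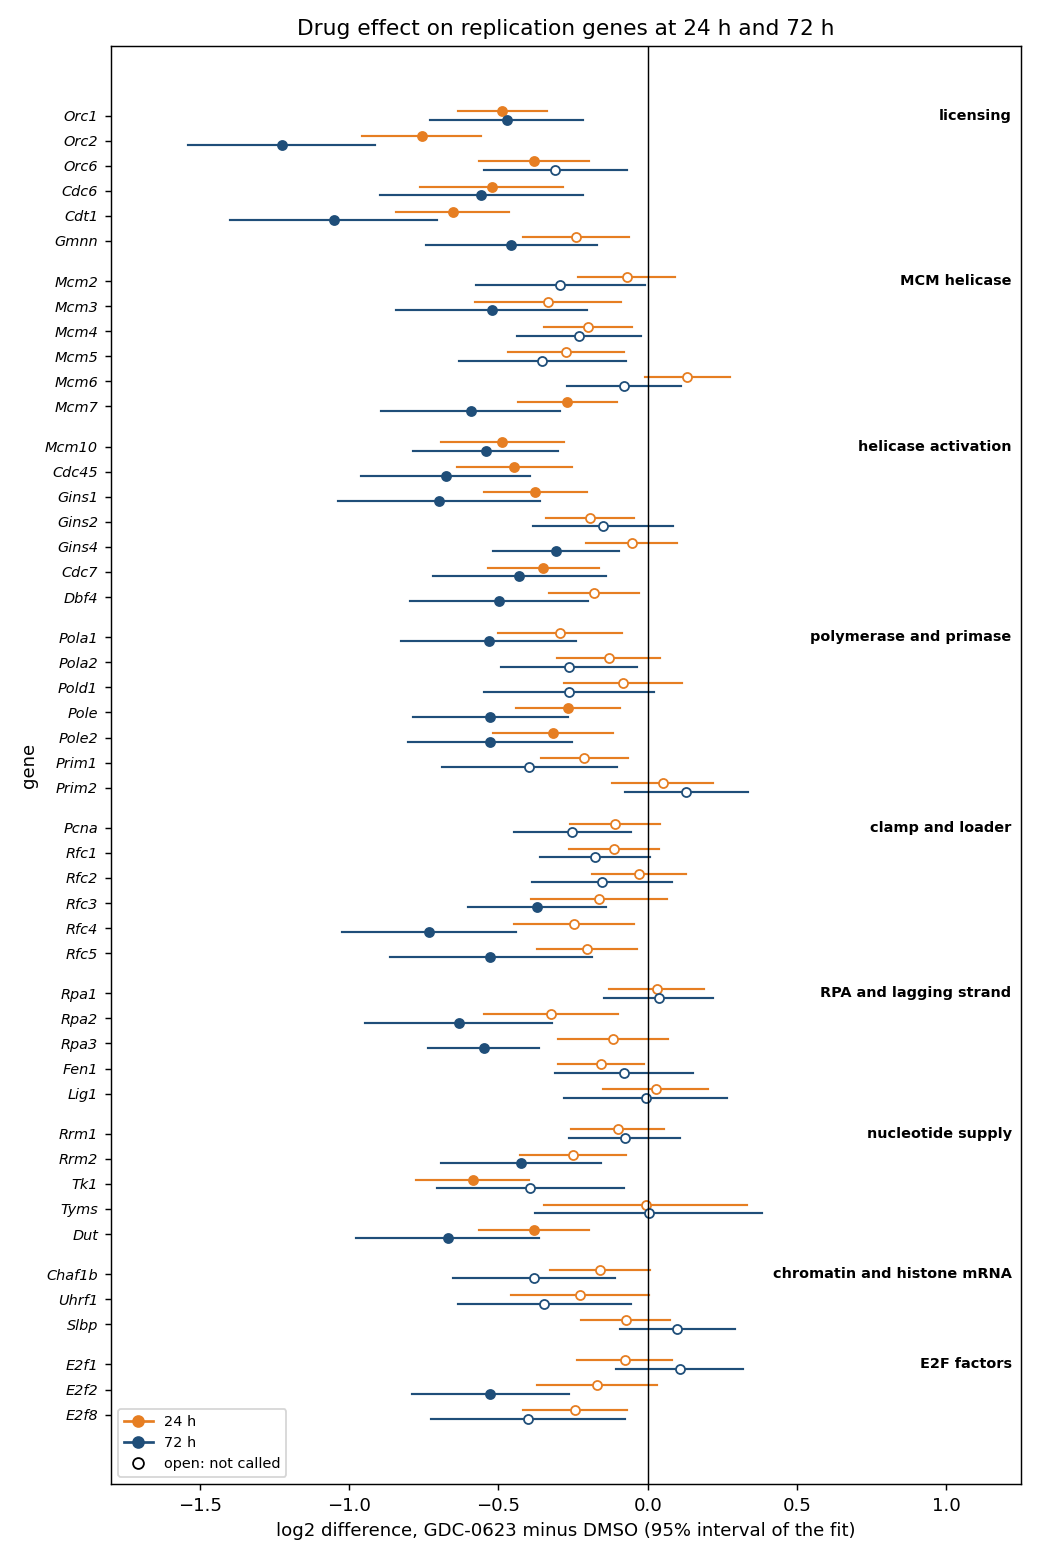
Log2 difference (GDC-0623 minus DMSO) of every member at 24 h and 72 h with the 95% interval of the fit, 3 arrays per group; filled points are called at an adjusted p under 0.05 and open points are not. Filled points number 14 at 24 h and 24 at 72 h, all left of 0, and the largest differences are those of Orc2 and Cdt1.

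The licensing group was the one with the largest share of falls at 24 h: 5 of 6 members fell at 24 h (median −0.51) and 5 of 6 at 72 h (median −0.52), and the arrays of drug and solvent overlapped for none of the 6 at either time. Of all genes, 8.23% were called lower at 24 h and 12.4% at 72 h, and 20% and 23.7% lay wholly below. Orc2, a subunit of the origin recognition complex, read 8.14, 8.37 and 8.42 in 24 h GDC-0623 and 9.03, 9.15 and 9.02 in 24 h DMSO. After 72 h, Orc2 read 7.65, 8.25 and 8.04 with GDC-0623 and 9.18, 9.29 and 9.15 with DMSO. Its groups did not overlap at either time, and replicate 1 was the lowest drug array at both. Orc2 fell by 1.69-fold at 24 h (log2 difference −0.76 ± 0.09, adjusted p = 0.000484) and 2.34-fold at 72 h (−1.23 ± 0.14, adjusted p = 0.000423). Without replicate 1 of 72 h GDC-0623 the 72 h difference was −1.06.

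Cdt1, which brings the MCM ring to the origin and whose promoter is printed above, read 10.69, 10.87 and 10.96 in 24 h GDC-0623 and 11.49, 11.44 and 11.55 in 24 h DMSO. At 72 h the values of Cdt1 were 10.07, 10.69 and 10.68 in GDC-0623 and 11.50, 11.54 and 11.56 in DMSO. The solvent arrays lay between 11.44 and 11.56 over both times, and all drug arrays lay below them. Cdt1 was 1.57-fold lower at 24 h (−0.65 ± 0.08, adjusted p = 0.000782) and 2.08-fold lower at 72 h (−1.05 ± 0.15, adjusted p = 0.00155), or −0.85 without the array that stood apart. Cdc6, the ATPase that loads MCM with Cdt1, read 8.65, 9.01 and 9.06 in 24 h GDC-0623 and 9.44, 9.46 and 9.39 in 24 h DMSO, and 8.14, 8.70 and 8.76 in 72 h GDC-0623 and 9.06, 9.05 and 9.16 in 72 h DMSO. Cdc6 fell at both times (−0.52 ± 0.11, adjusted p = 0.00871; −0.56 ± 0.15, adjusted p = 0.029), with −0.36 at 72 h without that array. Its 72 h call was lost without any 1 of the 3 arrays of 72 h DMSO (−0.58 to −0.52, adjusted p of 0.077 to 0.0935).

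Orc1, the ATPase subunit of the complex, fell by a similar amount at both times (−0.49 ± 0.07 at 24 h and −0.47 ± 0.11 at 72 h, or −0.34 without replicate 1). A dim second probe set of Orc1, with a mean of 5.46, gave −0.28 at 24 h and was called (adjusted p = 0.0327). At 72 h it gave −0.15 and was not called (adjusted p = 0.294). Orc6 fell at 24 h (−0.38 ± 0.08) and stood at −0.31 ± 0.11 at 72 h (adjusted p = 0.0737; −0.19 without replicate 1). Gmnn, which encodes the Cdt1 inhibitor geminin, stood at −0.24 ± 0.08 at 24 h (adjusted p = 0.0719) and fell at 72 h (−0.46 ± 0.13, adjusted p = 0.0327). Without replicate 1, Gmnn stood at −0.30 at 72 h and was still called (adjusted p = 0.0339).

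On the probe set used for each gene, 1 of the 6 MCM ring subunits fell at 24 h (median −0.24) and 2 at 72 h (median −0.32). The shares of all genes called lower were 8.23% and 12.4%. Mcm7 read 11.49, 11.67 and 11.67 in 24 h GDC-0623 and 11.88, 11.88 and 11.88 in 24 h DMSO, and 10.84, 11.36 and 11.30 in 72 h GDC-0623 and 11.67, 11.79 and 11.82 in 72 h DMSO. Drug arrays lay below solvent arrays at both times, and Mcm7 fell by 1.21-fold at 24 h (−0.27 ± 0.07, adjusted p = 0.034) and 1.51-fold at 72 h (−0.59 ± 0.13, adjusted p = 0.0127; −0.43 without replicate 1). The 24 h call of Mcm7 was lost on leaving out any array but replicate 3 of 24 h GDC-0623 (−0.30 to −0.21), and its 72 h call without replicate 2 of 72 h DMSO (−0.58, adjusted p = 0.0516). For Mcm3, values were 9.90, 10.34 and 10.27 in 24 h GDC-0623 and 10.49, 10.52 and 10.50 in 24 h DMSO, and 9.39, 9.99 and 9.89 in 72 h GDC-0623 and 10.26, 10.30 and 10.28 in 72 h DMSO. The groups of Mcm3 did not overlap, with −0.33 ± 0.11 at 24 h (adjusted p = 0.0687) and a fall of −0.52 ± 0.14 at 72 h (adjusted p = 0.0294; −0.34 without replicate 1), a call lost without any 1 of the arrays of 72 h DMSO (−0.53 to −0.51).

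Mcm6 was the 1 member whose 24 h drug arrays all lay above the solvent arrays. It read 11.36, 11.38 and 11.36 in 24 h GDC-0623 and 11.25, 11.21 and 11.24 in 24 h DMSO, a difference of 0.13 ± 0.06 (adjusted p = 0.197, 95% interval −0.01 to 0.28) that was called only with the trended prior (adjusted p = 0.0348). At 72 h it read 10.94, 11.17 and 11.08 in GDC-0623 and 11.11, 11.19 and 11.13 in DMSO, and the groups overlapped (−0.08 ± 0.08, or −0.02 without replicate 1). Its second probe set gave −0.01 at 24 h. At 72 h the differences of Mcm2, Mcm4 and Mcm5 were −0.29, −0.23 and −0.35, none called, and without replicate 1 they were −0.14, −0.14 and −0.20. A second probe set of Mcm4 gave −0.50 at 72 h and was called (adjusted p = 0.0269), and the dimmest of 3 probe sets of Mcm5, with a mean of 5.37, gave −0.35 (adjusted p = 0.0481). At 24 h, Mcm3 probe sets with means of 9.06, 9.46 and 10.02 gave −0.61, −0.43 and −0.34. All were called (adjusted p = 0.000811, 0.0104 and 0.0342). A dim probe set of Mcm3, with a mean of 5.73, gave −0.34 and was not called (adjusted p = 0.0596). For Mcm5, a probe set with a mean of 10.04 gave −0.37 at 24 h and was called (adjusted p = 0.0219). The dimmest one gave −0.14 at 24 h and was not called (adjusted p = 0.233).

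Of the genes of helicase activation, 4 of 7 fell at 24 h (median −0.35) and 6 of 7 at 72 h (median −0.50), against 8.23% and 12.4% of all genes. Gins1, a GINS subunit, read 8.92, 8.93 and 9.11 in 24 h GDC-0623 and 9.42, 9.34 and 9.33 in 24 h DMSO, and 8.16, 8.79 and 8.69 in 72 h GDC-0623 and 9.21, 9.21 and 9.32 in 72 h DMSO. No drug array reached the lowest solvent array at its time, and Gins1 fell at 24 h (−0.38 ± 0.08, adjusted p = 0.00896) and at 72 h (−0.70 ± 0.15, adjusted p = 0.0101). Cdc45, which joins MCM and GINS in the active helicase, read 7.98, 8.17 and 8.27 in 24 h GDC-0623 and 8.62, 8.61 and 8.53 in 24 h DMSO, and 7.44, 7.89 and 7.92 in 72 h GDC-0623 and 8.44, 8.38 and 8.46 in 72 h DMSO. Cdc45 also fell without overlap, by 1.36-fold at 24 h (−0.45 ± 0.09, adjusted p = 0.0066) and 1.6-fold at 72 h (−0.68 ± 0.13, adjusted p = 0.00513). A dim second probe set of Cdc45, with a mean of 5.17, gave −0.18 at 24 h and −0.10 at 72 h. Neither was called (adjusted p = 0.297 and 0.436). One of Gins1, with a mean of 4.35, gave −0.30 at 24 h, not called (adjusted p = 0.1). At 72 h it gave −0.37 and was called (adjusted p = 0.0274). Without replicate 1 of 72 h GDC-0623, the 72 h differences were −0.51 for Gins1 and −0.52 for Cdc45.

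Mcm10, a firing factor that is not part of the ring, read 8.71, 9.0 and 9.01 in 24 h GDC-0623 and 9.36, 9.45 and 9.37 in 24 h DMSO, and 8.12, 8.46 and 8.49 in 72 h GDC-0623 and 8.84, 8.93 and 8.93 in 72 h DMSO. It fell by nearly the same amount at both times (−0.49 ± 0.09 and −0.54 ± 0.11, or −0.42 at 72 h without replicate 1), while its level in DMSO was also lower at 72 h than at 24 h. A probe set of Mcm10 with a mean of 5.01 gave −0.35 at 24 h and was not called (adjusted p = 0.116). Another, with a mean of 5.31, gave −0.39 and was called (adjusted p = 0.00833). Cdc7 fell at 24 h (−0.35 ± 0.08) and 72 h (−0.43 ± 0.13, adjusted p = 0.0443; −0.27 without replicate 1, adjusted p = 0.0493). Its activator Dbf4 stood at −0.18 ± 0.07 at 24 h (adjusted p = 0.104) and fell at 72 h (−0.50 ± 0.13; −0.33 without replicate 1). Gins2, a further GINS subunit, read 9.07, 9.16 and 9.15 in 24 h GDC-0623 and 9.32, 9.33 and 9.31 in 24 h DMSO, and 8.63, 8.96 and 8.99 in 72 h GDC-0623 and 9.0, 8.99 and 9.04 in 72 h DMSO. The 72 h groups of Gins2 overlapped (−0.15 ± 0.10, 95% interval −0.39 to 0.09; −0.04 without replicate 1). Gins4 stood at −0.05 at 24 h and fell at 72 h (−0.31 ± 0.09, adjusted p = 0.0476), a call lost without replicate 1 (−0.22, adjusted p = 0.103).

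Among polymerase and primase subunits, 2 of 7 fell at 24 h (median −0.21) and 3 of 7 at 72 h (median −0.40), against 8.23% and 12.4% of all genes. Pole, the catalytic subunit of leading-strand polymerase epsilon, read 8.60, 8.79 and 8.81 in 24 h GDC-0623 and 9.03, 8.96 and 9.01 in 24 h DMSO, and 7.98, 8.36 and 8.35 in 72 h GDC-0623 and 8.65, 8.77 and 8.85 in 72 h DMSO. Its groups were apart at both times, with falls of −0.27 ± 0.08 (adjusted p = 0.0437) and −0.53 ± 0.12 (adjusted p = 0.0113). Pole2, its partner subunit, read 8.99, 9.18 and 9.32 in 24 h GDC-0623 and 9.52, 9.47 and 9.45 in 24 h DMSO, and 8.53, 8.89 and 8.90 in 72 h GDC-0623 and 9.17, 9.27 and 9.47 in 72 h DMSO. Pole2 also fell at 24 h (−0.32 ± 0.09, adjusted p = 0.0391) and 72 h (−0.53 ± 0.12, adjusted p = 0.0142). The 24 h call was lost for Pole and Pole2 on leaving out any array but replicate 3 of 24 h GDC-0623 (−0.31 to −0.20 and −0.40 to −0.23), and the 72 h call of Pole2 without replicate 3 of 72 h DMSO (−0.45). Without replicate 1 of 72 h GDC-0623 the 72 h differences were −0.40 for Pole and −0.41 for Pole2.

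Pola1, the catalytic subunit of polymerase alpha, read 9.0, 9.12 and 9.31 in 24 h GDC-0623 and 9.41, 9.36 and 9.54 in 24 h DMSO, and 8.39, 8.84 and 8.91 in 72 h GDC-0623 and 9.28, 9.24 and 9.22 in 72 h DMSO. It stood at −0.29 ± 0.09 at 24 h (adjusted p = 0.0608) and fell at 72 h (−0.53 ± 0.13, adjusted p = 0.0182). The 72 h call of Pola1 was lost without any 1 array of 72 h DMSO (−0.55 to −0.52), and its difference was −0.37 without replicate 1 of 72 h GDC-0623. A dim second probe set of Pola1, with a mean of 3.27 in the background range of about 3 to 5, gave 0.13 at 72 h. Prim2, the large primase subunit, read 8.57, 8.76 and 8.65 in 24 h GDC-0623 and 8.61, 8.67 and 8.55 in 24 h DMSO, and 8.29, 8.51 and 8.56 in 72 h GDC-0623 and 8.26, 8.36 and 8.35 in 72 h DMSO. The groups of Prim2 overlapped at both times, and its 72 h difference of 0.13 ± 0.09 had a 95% interval of −0.08 to 0.34 (0.21 without replicate 1). Its partner Prim1 stood at −0.40 ± 0.13 at 72 h (adjusted p = 0.0614; −0.24 without replicate 1), and Pold1, the catalytic subunit of polymerase delta, at −0.26 ± 0.13 (adjusted p = 0.196; −0.12 without replicate 1).

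No member of the clamp and loader group was called at 24 h (0 of 6, median −0.14), against 8.23% of all genes called lower. At an unadjusted p under 0.05 the number was 2 of 6, against 35% of all genes. At 72 h, 3 of 6 fell (median −0.31), all of them small subunits of the loader RFC, against 12.4% of all genes. Rfc4 read 9.01, 9.31 and 9.22 in 24 h GDC-0623 and 9.40, 9.51 and 9.37 in 24 h DMSO, and 8.40, 8.86 and 8.76 in 72 h GDC-0623 and 9.28, 9.57 and 9.37 in 72 h DMSO. The 24 h groups did not overlap (−0.25 ± 0.09, adjusted p = 0.0975), and at 72 h Rfc4 fell by 1.66-fold (−0.73 ± 0.13, adjusted p = 0.00399; −0.60 without replicate 1). Rfc5 read 9.91, 10.09 and 10.09 in 24 h GDC-0623 and 10.23, 10.25 and 10.22 in 24 h DMSO, and 9.08, 9.69 and 9.66 in 72 h GDC-0623 and 9.98, 10.04 and 9.99 in 72 h DMSO. It stood at −0.20 ± 0.07 at 24 h (adjusted p = 0.0974) and fell at 72 h (−0.53 ± 0.15, adjusted p = 0.0359; −0.33 without replicate 1), but was not called without any 1 array of 72 h DMSO (−0.54 to −0.51).

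Rfc3 read 8.44, 8.79 and 8.77 in 24 h GDC-0623 and 8.83, 8.91 and 8.75 in 24 h DMSO, and 8.19, 8.52 and 8.47 in 72 h GDC-0623 and 8.67, 8.82 and 8.80 in 72 h DMSO. Its 24 h groups overlapped, and its fall at 72 h (−0.37 ± 0.10, adjusted p = 0.0322) was not called without replicate 1 of 72 h GDC-0623 (−0.27, adjusted p = 0.0666), nor without any 1 array of 72 h DMSO (−0.42 to −0.34). Rfc2, a further small subunit, read 9.79, 9.83 and 9.95 in 24 h GDC-0623 and 9.89, 9.87 and 9.90 in 24 h DMSO, and 9.33, 9.68 and 9.67 in 72 h GDC-0623 and 9.72, 9.69 and 9.73 in 72 h DMSO. Rfc2 was not called, with −0.15 ± 0.10 at 72 h and a 95% interval of −0.39 to 0.08, or −0.04 without replicate 1. Rfc1 stood at −0.11 at 24 h (adjusted p = 0.303), and a probe set with a mean of 9.26 gave −0.05 (adjusted p = 0.749). Its dimmest probe set, with a mean of 7.77, gave −0.49 at 24 h and was called (adjusted p = 0.0488). Pcna, the clamp itself, stood at −0.11 ± 0.07 at 24 h (adjusted p = 0.323) and −0.25 ± 0.09 at 72 h (adjusted p = 0.0728; −0.18 without replicate 1).

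Of RPA and the lagging-strand enzymes, 0 of 5 members were called at 24 h on the probe sets used (median −0.12), against 8.23% of all genes called lower. At an unadjusted p under 0.05 the number was 2 of 5, against 35% of all genes. At 72 h, 2 of 5 fell (median −0.08), against 12.4% of all genes. Rpa2, the middle subunit of RPA, read 9.0, 9.36 and 9.25 in 24 h GDC-0623 and 9.48, 9.63 and 9.47 in 24 h DMSO, and 8.37, 8.90 and 8.92 in 72 h GDC-0623 and 9.35, 9.36 and 9.38 in 72 h DMSO. Its arrays did not overlap, with −0.32 ± 0.10 at 24 h (adjusted p = 0.0548). At 72 h Rpa2 fell (−0.63 ± 0.14, adjusted p = 0.0114), or by −0.45 without replicate 1. A second probe set of Rpa2, with a mean of 8.82, gave −0.50 at 24 h and was called (adjusted p = 0.00592). Rpa3, the small subunit, read 9.51, 9.43 and 9.69 in 24 h GDC-0623 and 9.62, 9.71 and 9.65 in 24 h DMSO, and 9.25, 9.46 and 9.40 in 72 h GDC-0623 and 9.88, 9.92 and 9.96 in 72 h DMSO. The 24 h groups of Rpa3 overlapped (−0.12 ± 0.08), and at 72 h it fell by 1.46-fold (−0.55 ± 0.08, adjusted p = 0.0018; −0.49 without replicate 1).

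The large RPA subunit gene, Rpa1, stood at 0.03 ± 0.07 at 24 h and 0.04 ± 0.08 at 72 h, with a 95% interval of −0.15 to 0.22 at 72 h (0.08 without replicate 1). Lig1, the ligase that seals lagging-strand fragments, read 10.31, 10.48 and 10.53 in 24 h GDC-0623 and 10.39, 10.39 and 10.46 in 24 h DMSO, and 9.73, 10.15 and 10.14 in 72 h GDC-0623 and 9.93, 10.0 and 10.11 in 72 h DMSO. Both pairs of groups overlapped, and the 72 h difference of −0.01 ± 0.12 had a 95% interval of −0.28 to 0.27 (0.13 without replicate 1). Fen1, the flap nuclease that acts before Lig1, stood at −0.08 ± 0.10 at 72 h (adjusted p = 0.662; 0.03 without replicate 1).

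**Figure D4:**
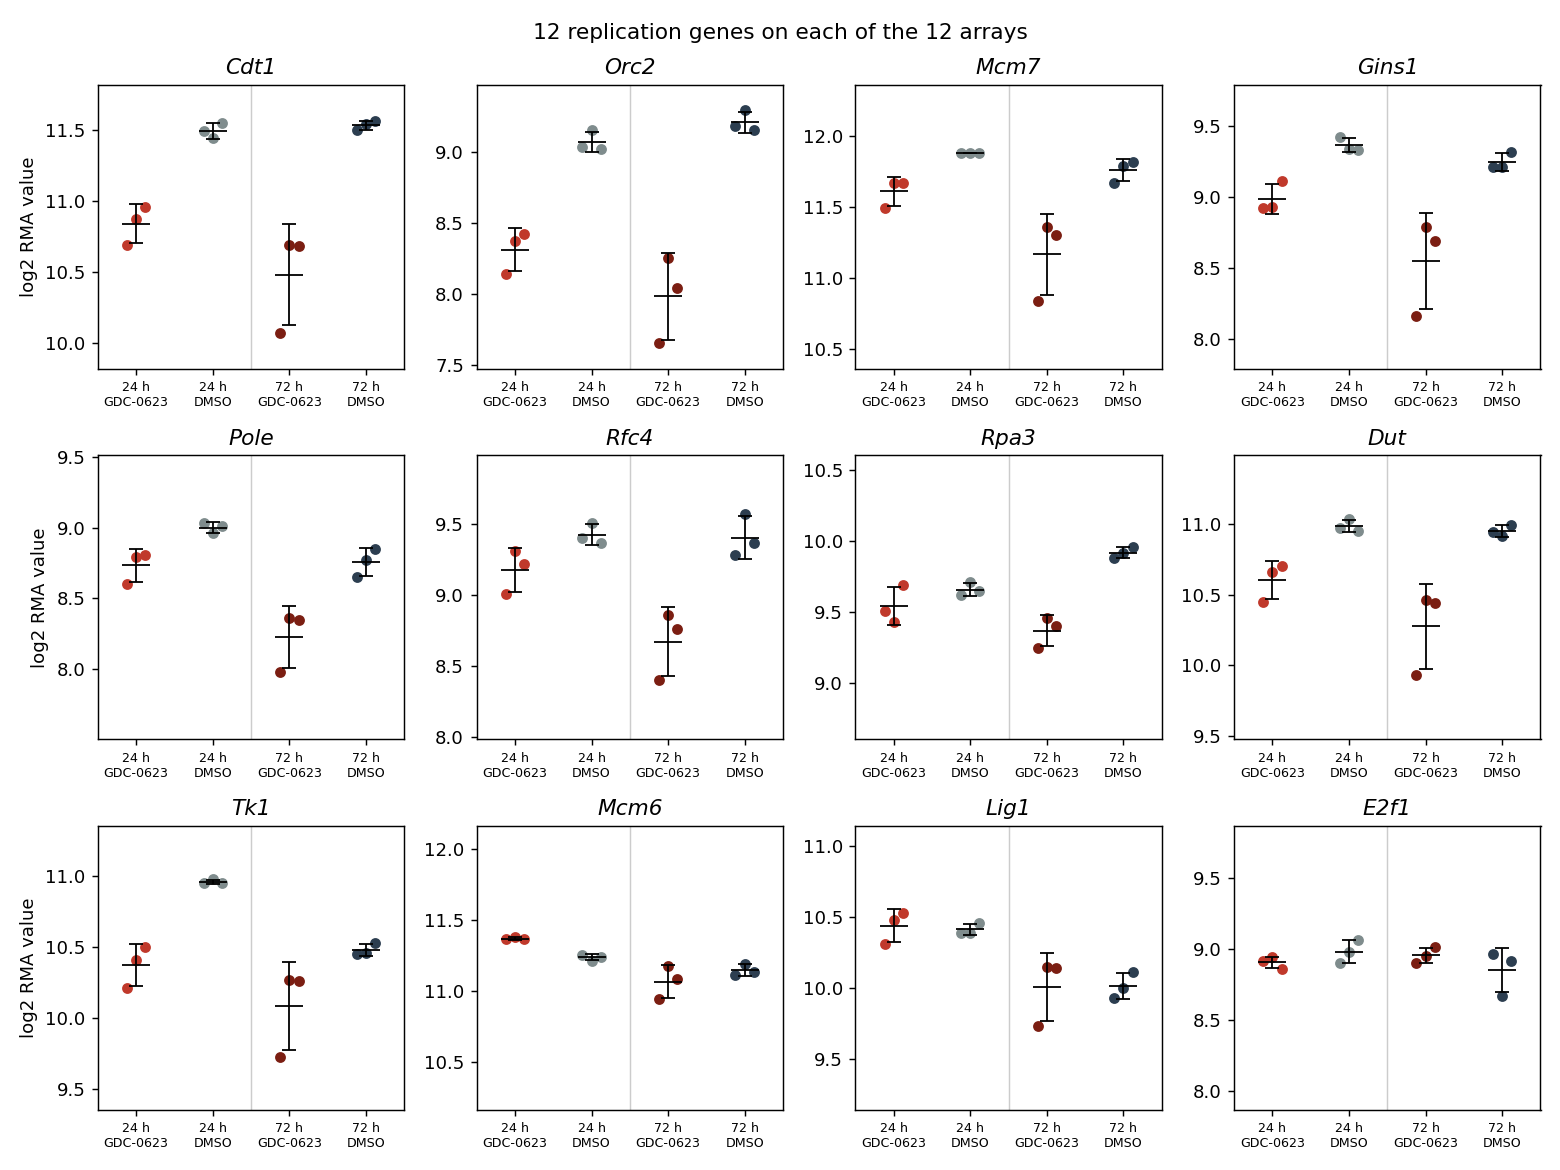
Log2 RMA values of 12 members on each of the 12 arrays; every y axis spans 2 log2 units, points are arrays from left to right as replicates 1, 2 and 3, the line is the group mean and the bar its SD (n = 3). Cdt1 reads 10.07, 10.69 and 10.68 in 72 h GDC-0623 against 11.50, 11.54 and 11.56 in 72 h DMSO, while the groups of Lig1 and E2f1 overlap at both times.

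In nucleotide supply, 2 of 5 members fell at 24 h (median −0.25) and 2 of 5 at 72 h (median −0.39), against 8.23% and 12.4% of all genes. Only Dut was called at both times on the probe sets used. Dut, the enzyme that clears dUTP, read 10.45, 10.66 and 10.70 in 24 h GDC-0623 and 10.97, 11.03 and 10.95 in 24 h DMSO, and 9.93, 10.46 and 10.44 in 72 h GDC-0623 and 10.94, 10.91 and 10.99 in 72 h DMSO. It fell without overlap at 24 h (−0.38 ± 0.08, adjusted p = 0.0119) and 72 h (−0.67 ± 0.14, adjusted p = 0.00781). Without replicate 1 the 72 h difference was −0.50. A second probe set of Dut, with a mean of 5.99, gave −0.16 at 24 h and was not called (adjusted p = 0.377). At 72 h it gave −0.51 and was called (adjusted p = 0.035). Tk1, the thymidine salvage kinase, read 10.21, 10.41 and 10.50 in 24 h GDC-0623 and 10.95, 10.98 and 10.95 in 24 h DMSO, and 9.73, 10.27 and 10.26 in 72 h GDC-0623 and 10.45, 10.46 and 10.53 in 72 h DMSO. Tk1 fell by 1.5-fold at 24 h (−0.59 ± 0.08, adjusted p = 0.00143) and stood at −0.39 ± 0.14 at 72 h (adjusted p = 0.0807; −0.21 without replicate 1), where its solvent arrays were lower than at 24 h.

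Rrm2, the small subunit of ribonucleotide reductase, read 12.06, 12.21 and 12.11 in 24 h GDC-0623 and 12.26, 12.43 and 12.44 in 24 h DMSO, and 11.22, 11.65 and 11.60 in 72 h GDC-0623 and 11.82, 11.99 and 11.93 in 72 h DMSO. It stood at −0.25 ± 0.08 at 24 h (adjusted p = 0.0597) and fell at 72 h (−0.42 ± 0.12, adjusted p = 0.034), a call lost without replicate 1 of 72 h GDC-0623 (−0.29, adjusted p = 0.0547) or any 1 array of 72 h DMSO (−0.47 to −0.39). A probe set of Rrm2 with a mean of 11.48 gave −0.40 at 24 h and was called (adjusted p = 0.00426). Another, with a mean of 11.43, gave −0.26 and was not called (adjusted p = 0.0558). The large subunit gene, Rrm1, stood at −0.10 at 24 h and −0.08 at 72 h (95% interval −0.26 to 0.11 at 72 h; −0.02 without replicate 1). Tyms, thymidylate synthase, read 4.39, 4.57 and 4.92 in 24 h GDC-0623 and 4.55, 4.91 and 4.44 in 24 h DMSO, and 4.06, 4.57 and 4.50 in 72 h GDC-0623 and 4.05, 4.46 and 4.61 in 72 h DMSO. These values lie in the background range, as do those of its other probe sets; all other members averaged at least 6.30 in each group.

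On the probe sets used, neither the chromatin genes nor, apart from E2f2, the E2F genes were called (0 of 3 and 0 of 3 at 24 h, 0 of 3 and 1 of 3 at 72 h). Of all genes, 8.23% were called lower at 24 h and 12.4% at 72 h. At 24 h no chromatin gene and 1 E2F gene, E2f8, had an unadjusted p under 0.05, against 35% of all genes. At 72 h these numbers were 2 and 2, against 38.5% of all genes. Slbp, which binds histone mRNA, read 10.73, 10.67 and 10.78 in 24 h GDC-0623 and 10.80, 10.82 and 10.78 in 24 h DMSO, and 10.50, 10.67 and 10.75 in 72 h GDC-0623 and 10.53, 10.57 and 10.52 in 72 h DMSO. Its groups overlapped, and its 72 h difference was 0.10 ± 0.09 (95% interval −0.09 to 0.29; 0.17 without replicate 1). Chaf1b, a subunit of the histone chaperone CAF-1, stood at −0.38 ± 0.12 at 72 h (adjusted p = 0.0543), or −0.24 without replicate 1. Uhrf1, which guides maintenance methylation, stood at −0.35 ± 0.13 at 72 h (adjusted p = 0.0953), or −0.19 without replicate 1. At 24 h Uhrf1 stood at −0.23 (adjusted p = 0.177). A second probe set of Uhrf1, with a mean of 8.72, gave −0.38 at 24 h and was called (adjusted p = 0.0394).

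E2f1, an activator of S-phase genes, read 8.91, 8.94 and 8.86 in 24 h GDC-0623 and 8.90, 8.98 and 9.06 in 24 h DMSO, and 8.90, 8.95 and 9.01 in 72 h GDC-0623 and 8.96, 8.67 and 8.91 in 72 h DMSO. Its groups overlapped at both times, with −0.08 ± 0.07 at 24 h and 0.11 ± 0.09 at 72 h (95% interval −0.11 to 0.32; 0.13 without replicate 1). E2f2, a related activator, read 6.32, 6.38 and 6.56 in 24 h GDC-0623 and 6.62, 6.46 and 6.69 in 24 h DMSO, and 6.02, 6.45 and 6.42 in 72 h GDC-0623 and 6.84, 6.80 and 6.83 in 72 h DMSO. E2f2 overlapped at 24 h (−0.17 ± 0.09) and fell at 72 h (−0.53 ± 0.12, adjusted p = 0.0116; −0.39 without replicate 1). E2f8, a repressor of the family, stood at −0.24 ± 0.08 at 24 h (adjusted p = 0.0611). At 72 h it stood at −0.40 ± 0.14 (adjusted p = 0.086), or −0.23 without replicate 1. A second, dimmer probe set of E2f8, with a mean of 5.09, gave −0.52 at 24 h and was called (adjusted p = 0.00195). At 72 h that probe set gave −0.22 and was not called (adjusted p = 0.241).

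Members also fell with culture time in the solvent alone. In DMSO at 72 h relative to 24 h, 21 of 48 members fell (43.8%), against 5.14% of all genes, and Rpa3 alone rose, against 8.41% of all genes called higher. The median difference was −0.20, against −0.02 over all genes. Leaving out any 1 of the 6 arrays gave 13 or 14 called, against 2.04% to 3.59% of all genes called lower, and 1 fit over all 12 arrays gave 13, against 4.2%. Under GDC-0623, 9 members fell between these times, against 3.11% of all genes, and 0 rose, against 5.79% (33 members had an unadjusted p under 0.05, against 26.6% of all genes). Their median was −0.36, or −0.22 with 2 called, Rpa1 and Rrm2, when replicate 1 of 72 h GDC-0623 was left out. Without that array 1.62% of all genes were called lower. Leaving out replicate 2 or 3 of 24 h GDC-0623 left 0 called, against 0.467% or 0.561% of all genes called lower. Without replicate 1 of that group or replicate 3 of 72 h GDC-0623, 5 were called, against 1.84% or 1.95%. One fit over all 12 arrays called 27, against 8.78% of all genes called lower.

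Some members fell with time in DMSO and were not called with the drug at 72 h, and others the reverse; these comparisons share arrays, so their values are only set side by side. With time in DMSO, Orc6 (−0.56 ± 0.06, adjusted p = 0.00113), Rpa1 (−0.43 ± 0.07, 0.00626), Lig1 (−0.40 ± 0.07, 0.00876) and Rrm1 (−0.37 ± 0.06, 0.00585) fell. The same genes stood at −0.31, 0.04, −0.01 and −0.08 with the drug at 72 h, none called. Orc2 stood at 0.14 ± 0.07 with time in DMSO (adjusted p = 0.255), Cdt1 at 0.04 ± 0.06 (adjusted p = 0.74), Dut at −0.04 ± 0.06 (adjusted p = 0.76) and Rfc4 at −0.02 ± 0.09 (adjusted p = 0.918). All 4 of these fell with the drug at 72 h. Mcm10 fell in both settings (−0.49 ± 0.06 with time in DMSO and −0.54 ± 0.11 with the drug at 72 h). Rpa3 rose with time in DMSO (0.26 ± 0.06, adjusted p = 0.0302) and stood at −0.17 ± 0.10 with time under GDC-0623 (adjusted p = 0.322; −0.11 without replicate 1).

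The drug effect at 72 h minus that at 24 h was tested directly, and 0 of 48 members were called in limma, against 1.46% of all genes called lower and 1.62% called higher. At an unadjusted p under 0.05 the number was 6 of 48, against 17.1% of all genes. The difference was negative for 37 of 48 members, with a median of −0.18, against −0.01 over all genes, but the median was −0.03 without replicate 1 of 72 h GDC-0623. Rpa3 had the smallest adjusted p among members (−0.43 ± 0.11, adjusted p = 0.0738), and was the 1 member called when dim probe sets were left out (adjusted p = 0.0322). For Orc2 the difference of effects was −0.47 ± 0.18 (adjusted p = 0.229), for Rfc4 −0.49 ± 0.17 (adjusted p = 0.185) and for Cdt1 −0.40 ± 0.19 (adjusted p = 0.361). Tk1 had the largest difference in the other direction (0.19 ± 0.17, adjusted p = 0.678). Without replicate 1 these differences were −0.37 for Rpa3, −0.30 for Orc2, −0.35 for Rfc4, −0.20 for Cdt1 and 0.37 for Tk1, none called.

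A second list, of 55 measured replication and G1/S genes, was read in the same way. At 24 h, 17 of 55 fell and 3 rose (median −0.18), and at 72 h, 24 fell and 2 rose (median −0.29), against the same shares of all genes as above. Mybl2, a transcription factor of late G1 and S phase, averaged 7.85 ± 0.27 in 24 h GDC-0623 and 8.62 ± 0.07 in 24 h DMSO (SD, n = 3 each), and 7.15 ± 0.30 in 72 h GDC-0623 and 8.13 ± 0.06 in 72 h DMSO. It fell at 24 h (−0.78 ± 0.12, adjusted p = 0.00239) and 72 h (−0.98 ± 0.14, adjusted p = 0.00125; −0.81 without replicate 1). Dna2, a nuclease and helicase of the lagging strand, fell at 24 h (−0.60 ± 0.11, adjusted p = 0.00475) and 72 h (−1.18 ± 0.17, adjusted p = 0.00158; −0.96 without replicate 1). Recql4, a helicase with a part in replication initiation, fell at 24 h (−0.47 ± 0.09, adjusted p = 0.00731) and 72 h (−1.08 ± 0.07, adjusted p = 3.25e-05; −1.05 without replicate 1).

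In that list Rb1, Samhd1 and Rbl2 rose at 24 h, and Samhd1 and Mcm9 at 72 h. Rb1, the retinoblastoma protein that restrains E2F, averaged 6.53 ± 0.20 in 24 h GDC-0623 and 5.63 ± 0.18 in 24 h DMSO, and 6.91 ± 0.37 in 72 h GDC-0623 and 6.46 ± 0.06 in 72 h DMSO. Rb1 rose at 24 h (0.90 ± 0.12, adjusted p = 0.000927) and stood at 0.45 ± 0.16 at 72 h (adjusted p = 0.085; 0.23 without replicate 1). Samhd1, which breaks down deoxynucleotides, averaged 9.09 ± 0.09 in 24 h GDC-0623 and 8.76 ± 0.05 in 24 h DMSO, and 9.82 ± 0.27 in 72 h GDC-0623 and 8.73 ± 0.06 in 72 h DMSO. Samhd1 rose at 24 h (0.33 ± 0.07, adjusted p = 0.0128) and 72 h (1.09 ± 0.13, adjusted p = 0.000467; 0.94 without replicate 1). The other called rises were Rbl2, a relative of Rb1, at 24 h (0.36 ± 0.07) and Mcm9, a helicase of recombination, at 72 h (0.32 ± 0.09; 0.39 without replicate 1). Other genes of the list that restrain the cycle or E2F targets stood elsewhere: E2f4 fell at 24 h (−0.32 ± 0.09) and 72 h (−0.33 ± 0.08), E2f5 fell at 72 h (−0.49 ± 0.08), and Rbl1, a relative of Rb1, stood at 0.04 ± 0.07 and −0.08 ± 0.11. E2f4 was dim, with group means of 5.52 to 5.93. E2f6 stood at −0.10 at 24 h and −0.20 at 72 h, and E2f7 at 0.10 and −0.003, none of them called. Rbl2, Mcm9, E2f4, E2f5, E2f6, E2f7 and Rbl1 were named after their values were seen.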

How the data were processed

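RNA of 12 MC38 cultures was hybridized to 1-colour Affymetrix mouse expression arrays, 1 array per culture. The authors deposited log2 signals per probe set after RMA, named in the submitters' processing notes. No genome build or software version for that step is given in the sources used here, and array number limits the precision. Of 45101 probe sets, 64 controls were left out and 45037 were tested, 34945 of them with a single gene symbol (932 had several and 9160 none) in the platform annotation. A gene was read from its single-symbol probe set with the highest mean over the 12 arrays, 18193 genes in all; 34741 of these probe sets had their gene ID matched to current names.

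Each comparison used only its own arrays, in a two-sided limma fit with eBayes (limma 3.58.1 under R 4.3.3) and Benjamini-Hochberg adjustment over all 45037 probe sets at 0.05. The difference of drug effects was fitted on all 12 arrays. The procedure was tested on simulated data, drawn as independent normal values with 1 SD per probe set for all groups. That setting lacks the larger spread under the drug and the array that stood apart, so it cannot speak to them. Members and lists were chosen with earlier results of these data known. Array values are given, for each role, for up to 3 called members with the largest difference and for the member nearest 0 at 72 h among those not called. Alternatives were 1 fit over 12 arrays, replicate number as a block, a filter of 5 on at least 3 arrays, repeated quantile normalization, hybridization-control scaling, another prior, a minimum change of 0.5, other probe sets, and each array left out. Array weights, and leaving out the array that stood apart for members outside the naming rule, were added after seeing the data. Figures were drawn with matplotlib 3.10.9.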

Additional observations from a re-analysis of the deposited data

Results flagged for a closer look

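In 4 of the 55 measured genes of the second list, none of them a member, the drug effect (GDC-0623 minus DMSO, log2) differed between 72 h and 24 h in a direct limma test of that difference. That test called 1.46% of all genes lower and 1.62% higher. Recql4 differed by −0.61 (adjusted p = 0.0127), with −1.08 at 72 h and −0.47 at 24 h. For Rrm2b, a small subunit of ribonucleotide reductase, the difference was −0.49 (adjusted p = 0.0155), with −0.42 at 72 h and 0.07 at 24 h. E2f5, a repressor of the E2F family, differed by −0.55 (adjusted p = 0.00783), with −0.49 at 72 h and 0.06 at 24 h. Samhd1 differed by 0.76 (adjusted p = 0.0175), with 1.09 at 72 h and 0.33 at 24 h. Groups of 3 arrays were not examined for single outlying values.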

How the results depend on the processing

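The members called at 24 h (14) numbered 9 in 1 fit over all 12 arrays, 28 without dim probe sets, 3 after the hybridization-control shift, 29 with the trended prior and 4 with a minimum change of 0.5 (Orc2, Cdc6, Cdt1, Tk1). In order up to the trended prior, 7.88%, 17.8%, 1.89% and 11% of all genes were called lower, against 8.23% in the main fit. No share of all genes is given for the minimum change. With time in DMSO (22 called) the numbers were 13 in the 12-array fit, 9 after the shift and 1 with the minimum change (Orc6). Of all genes, 4.2% were called lower in the 12-array fit and 1.58% after the shift, against 5.14% in the main fit. With time under GDC-0623 (9) the numbers were 27 in the 12-array fit, 14 without dim probe sets, 34 after the shift, 16 with the trended prior and 5 with the minimum change. In order up to the trended prior, 8.78%, 8.95%, 9.56% and 5.34% of all genes were called lower, against 3.11% in the main fit. The difference of drug effects (0) gave 1, Rpa3, without dim probe sets, after the shift, with the trended prior and with the mean of probe sets. Of all genes, 4.22%, 2.06%, 2.31% and 1.8% were called lower in that order, against 1.46% in the main fit. After the shift the median difference of members was −0.041 at 24 h, −0.16 with time in DMSO and −0.33 for the difference of effects. Over all genes the shifted medians were 0.14, 0.013 and −0.17. With each array left out, called members ranged from 10 to 16 at 24 h, 12 to 25 at 72 h, 13 to 14 with time in DMSO, 0 to 8 with time under GDC-0623 and 0 to 0 for the difference of effects. The shares of all genes called lower ranged from 5.14% to 7.23%, 8.03% to 11.2%, 2.04% to 3.59%, 0.467% to 1.95% and 0.874% to 1.62%. The medians ranged from −0.24 to −0.16, −0.49 to −0.24, −0.22 to −0.19, −0.45 to −0.22 and −0.26 to −0.033 in the same order. The labels number the replicates and give no batch or date. Deviations from the group mean were correlated between the groups compared. Same-number correlations were 0.0135 to 0.118 at 24 h and 0.0612 to 0.136 at 72 h. They were 0.0678 to 0.159 with time in DMSO and 0.0618 to 0.289 with time under GDC-0623. Correlations between different numbers ran from −0.244 to 0.108. Every array correlated best with its own number at 72 h and with time in DMSO, and 2 of 3 did elsewhere. The main fits do not pair arrays, and whether arrays of 1 number share a handling step was not tested. With the replicate block 13 members were called at 24 h, 29 at 72 h, 17 with time in DMSO, 23 with time under GDC-0623 and 1 (Rfc4) for the difference of effects. The shares of all genes called lower with this block were 7.39%, 12.1%, 3.86%, 5.07% and 1.92% in the same order. Of 894 values of named members under alternatives, 768 kept direction and call, 31 gained a call, 70 lost one and 25 changed sign, 1 of them of a called value. That value is Pola1 at 72 h, 0.13 on its second probe set. Second probe sets also gave −0.01 for Mcm6 at 24 h, and −0.017 for Prim2, −0.18 for Tyms and −0.007 for E2f1 at 72 h. The shift gave 0.004 for Rfc3, 0.14 for Rfc2, 0.05 for Rpa3, 0.16 for Tyms, 0.094 for Slbp and 0.09 for E2f1 at 24 h, and 0.004 for Lig1 at 72 h. With single arrays left out, values ranged from −0.077 to 0.003 for Rfc2, −0.018 to 0.092 for Lig1 and −0.153 to 0.132 for Tyms at 24 h, and from −0.078 to 0.132 for Lig1 and −0.158 to 0.162 for Tyms at 72 h. Repeated quantile normalization gave 0.031 and array weights 0.017 for Tyms at 24 h, and array weights gave 0.058 for Lig1 at 72 h. Apart from these constructions, the cause was not tested. With 3 arrays per group, signals near background, as for Tyms, limit what can be read.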
